A study of Mus musculus with 4 samples.

Results

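This report follows 9 genes through tumor-infiltrating lymphocytes of mice. *Foxp3*, *Ikzf2*, *Ikzf4*, *Il2ra*, *Areg* and *Il1rl1* belong to the program of regulatory T cells (Tregs), and *Tnfrsf4*, *Tnfrsf9* and *Tnfrsf18* encode receptors of the TNF receptor family. They were chosen by symbol, with earlier results of these data known. All 9 were among the 32285 genes of the count table of CD45-positive cells and the 31053 genes of the table of T cells. The cells came from B16 melanoma tumors taken on day 8 after injection under the skin of C57BL/6 mice. The tumor line was 1 clone of B16-F10 that carried the green fluorescent protein ZsGreen (ZsG) on a lentivirus and made it when the mice drank doxycycline, so that ZsG in an immune cell marked material made by the tumor. Immune cells (CD45 sort) and T cells (CD45+ TCRb+, called T cell sort here) were each split by their ZsG signal, which gave a ZsG-positive and a ZsG-negative gate per sort. Each of the 4 gates gave 1 library and no replicate, every library came from the same kind of tumor, mouse and treatment, and the labels do not say whether mice were pooled.

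Foxp3 is the transcription factor that defines Tregs, the CD4 T cells that restrain other T cells. Helios (*Ikzf2*) and Eos (*Ikzf4*) are zinc finger transcription factors that work with Foxp3, and CD25 (*Il2ra*) is the chain that gives the interleukin 2 receptor its high affinity. Tregs in tissues can also carry ST2 (*Il1rl1*), the receptor of interleukin 33, and secrete amphiregulin (*Areg*), an epidermal growth factor receptor ligand that acts on epithelium in repair. OX40 (*Tnfrsf4*), 4-1BB (*Tnfrsf9*) and GITR (*Tnfrsf18*) are costimulatory receptors that activated T cells gain on stimulation through the T cell receptor and that signal through TRAF adaptors to NF-kB. Tregs in tumors are known to carry all 3 at high levels, and antibodies against these receptors have been tried in cancer.

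On GRCm38, with gene models from GENCODE vM21, *Foxp3* lies at chrX:7573644-7595245 on the plus strand. *Ikzf2* lies at chr1:69531214-69687245 on the minus strand and *Ikzf4* at chr10:128630843-128645991 on the minus strand. *Il2ra* (chr2:11642807-11693193), *Areg* (chr5:91139599-91148432) and *Il1rl1* (chr1:40429570-40465415) are on the plus strand. The 3 TNF receptor genes share chromosome 4 and the plus strand. *Tnfrsf9* lies at chr4:150914562-150946102, *Tnfrsf4* at chr4:156013843-156016612 and *Tnfrsf18* at chr4:156026164-156028895, and 9552 bases separate the end of *Tnfrsf4* from the start of *Tnfrsf18*.

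The 250 bases before the RefSeq start sites of these 3 receptors are shown here (GRCm38.p6, plus strand, 5′ to 3′). The receptors were picked because all 3 are detected together in part of the Foxp3+ cells below, while their levels outside Tregs differ. RefSeq start sites need not be the first base of the GENCODE gene. Each window was searched on both strands for a kappa B form (GGG, then any pair of bases, then TTTCC), an AP-1 form (TGANTCA), a forkhead form (GTAAACA) and an NFAT core (TTTTCC), and matches are in capitals.
*Tnfrsf4*, chr4:156013445-156013694: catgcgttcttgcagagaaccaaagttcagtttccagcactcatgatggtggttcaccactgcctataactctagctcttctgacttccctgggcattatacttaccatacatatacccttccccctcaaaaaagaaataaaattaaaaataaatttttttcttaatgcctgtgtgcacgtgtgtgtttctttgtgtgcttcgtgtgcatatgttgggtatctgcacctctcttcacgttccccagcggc
*Tnfrsf18*, chr4:156026072-156026321: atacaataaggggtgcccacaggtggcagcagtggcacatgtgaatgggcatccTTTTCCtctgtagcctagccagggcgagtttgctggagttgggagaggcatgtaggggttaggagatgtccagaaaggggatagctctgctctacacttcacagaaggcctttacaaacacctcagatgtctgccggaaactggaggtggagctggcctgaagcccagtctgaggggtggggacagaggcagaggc
*Tnfrsf9*, second start, chr4:150927749-150927998: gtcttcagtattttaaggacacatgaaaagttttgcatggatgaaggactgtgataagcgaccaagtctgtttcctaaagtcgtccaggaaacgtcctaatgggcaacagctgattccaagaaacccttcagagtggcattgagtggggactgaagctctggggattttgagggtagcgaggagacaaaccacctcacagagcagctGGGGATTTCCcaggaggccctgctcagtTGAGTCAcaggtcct
The window of *Tnfrsf9* held a kappa B form that began 43 bases before the start and an AP-1 form that began 15 bases before it. The first start of *Tnfrsf9*, farther upstream, held an NFAT core 138 bases before it, and *Tnfrsf18* held one 196 bases before its start. None of the 4 forms was found in the window of *Tnfrsf4*. Of the 32851 promoters in the RefSeq table, 1.41% held the kappa B form, 6.75% the AP-1 form, 3.17% the forkhead form and 20.4% the NFAT core. These matches describe letters and were not tested as sites. In all, 7 of the 9 genes had a promoter entry, and *Ikzf2* and *Ikzf4* had none.

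The 4 libraries held 5437, 5168, 1136 and 2396 barcodes and 47537541, 56510578, 10030971 and 22100220 unique molecular identifiers (UMIs), in the order CD45 ZsG-negative, CD45 ZsG-positive, T cell ZsG-negative and T cell ZsG-positive. All values of 4 libraries below keep this order. The median depth was 5284 to 8520.5 UMIs per barcode, and any pair of libraries shared 1 to 6 barcodes. In the T cell sort a file name and the names of the libraries give opposite orders of the gates, and the library with 2396 barcodes was taken as ZsG-positive. The other order would turn the sign of every gate difference of the T cell sort, but would not touch comparisons between cell classes. According to the study's description of the sort, the CD45 gate took only bright cells, so that its ZsG-negative library holds many lymphocytes with some ZsG. Values are UMIs per 1000000 UMIs of the class and library (CPM), and intervals are 95% intervals that cover counting error only. Since 3′ counts depend on how well each gene is captured, levels are not compared between genes.

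Foxp3+ T cells, T cells with at least 1 *Foxp3* UMI, numbered 81 of 1342 T cells, 50 of 271, 37 of 659 and 138 of 780. Their share was 6.04% (4.82 to 7.45) in the CD45 ZsG-negative library and 18.5% (14.0 to 23.6) in the CD45 ZsG-positive library. It was 5.61% (3.98 to 7.66) and 17.7% (15.1 to 20.6) in the T cell sort. The share was thus higher in the ZsG-positive library of both sorts, with a log2 ratio of 1.61 (1.07 to 2.14) in the CD45 sort and 1.66 (1.12 to 2.22) in the T cell sort. With every cell thinned to 2000 UMIs the shares were 2.01%, 5.17%, 2.45% and 9.19%, so depth sets how many cells are found. In the CD45 sort the log2 ratio was 0.07 when cells were thinned before T cells were defined. It then rested on 26 of 807 T cells in the ZsG-negative and 4 of 118 in the ZsG-positive library. So few cells cannot show whether the order of the libraries was kept or lost.

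Markers of other cells moved with the gates. A *Cd4* UMI was found in 70.4%, 66.0%, 48.6% and 65.2% of Foxp3+ cells, and a *Cd8a* or *Cd8b1* UMI in 39.5%, 14.0%, 18.9% and 21.01%. At least 5 UMIs of *C1qa*, *C1qb*, *C1qc* and *Lyz2*, which mark macrophages, were found in 10, 36, 0 and 8 Foxp3+ cells, which is 72.0% of those in the CD45 ZsG-positive library. The summed level of the 6 macrophage markers in Foxp3+ cells was 1018, 6613, 7.37 and 647 CPM. Type 2 innate lymphoid cells can also carry ST2 and amphiregulin. Of their 5 markers, the cytokine genes *Il13* and *Il5* were at 0 in Foxp3+ cells of all 4 libraries, and the other 3 (*Gata3*, *Rora* and *Il7r*), which T cells also express, were detected in each, so that the list summed to 221, 183, 413 and 401 CPM. The 4 mast cell and basophil markers were at 0 as well. In bulk sums of this kind, fewer cells with a gene and less RNA of it per cell cannot be told apart.

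The 8 genes other than *Foxp3* had their highest mean level in Foxp3+ cells, except *Ikzf4*, which was higher in mature dendritic cells. *Foxp3* defined this class, so its own place was set in advance. The share of all genes with their highest level in Foxp3+ cells was not counted. Foxp3+ cells were compared within each library with Foxp3- Cd4+ T cells (no *Foxp3* UMI, at least 1 *Cd4* UMI), of which there were 62, 17, 63 and 53, with CD8 T cells (860, 168, 430 and 478) and with natural killer (NK) cells of the CD45 sort (1377 and 92). CD8 T cells were further split into Pdcd1+ Havcr2+ cells, which carry UMIs of the exhaustion receptors PD-1 and TIM-3, then Tcf7+ Pdcd1+, Gzmk+ and Tcf7+ Pdcd1- cells, and the rest. *Foxp3* itself was at 135 to 258 CPM in the cells it defined. In NK cells it was at 0.12 and 1.27 CPM, with 1 UMI in each library. After thinning, 33.3%, 28.0%, 43.2% and 51.1% of Foxp3+ cells still had a *Foxp3* UMI, so the transcript is easily missed. Foxp3- Cd4+ cells may therefore include Tregs whose *Foxp3* was not detected, and how many was not tested. Differences and overlaps between these classes are to be read with this limit. The share of all genes whose library values do not overlap between classes was not counted. A statement below that values do not overlap therefore describes that gene alone.

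**Figure D1:**
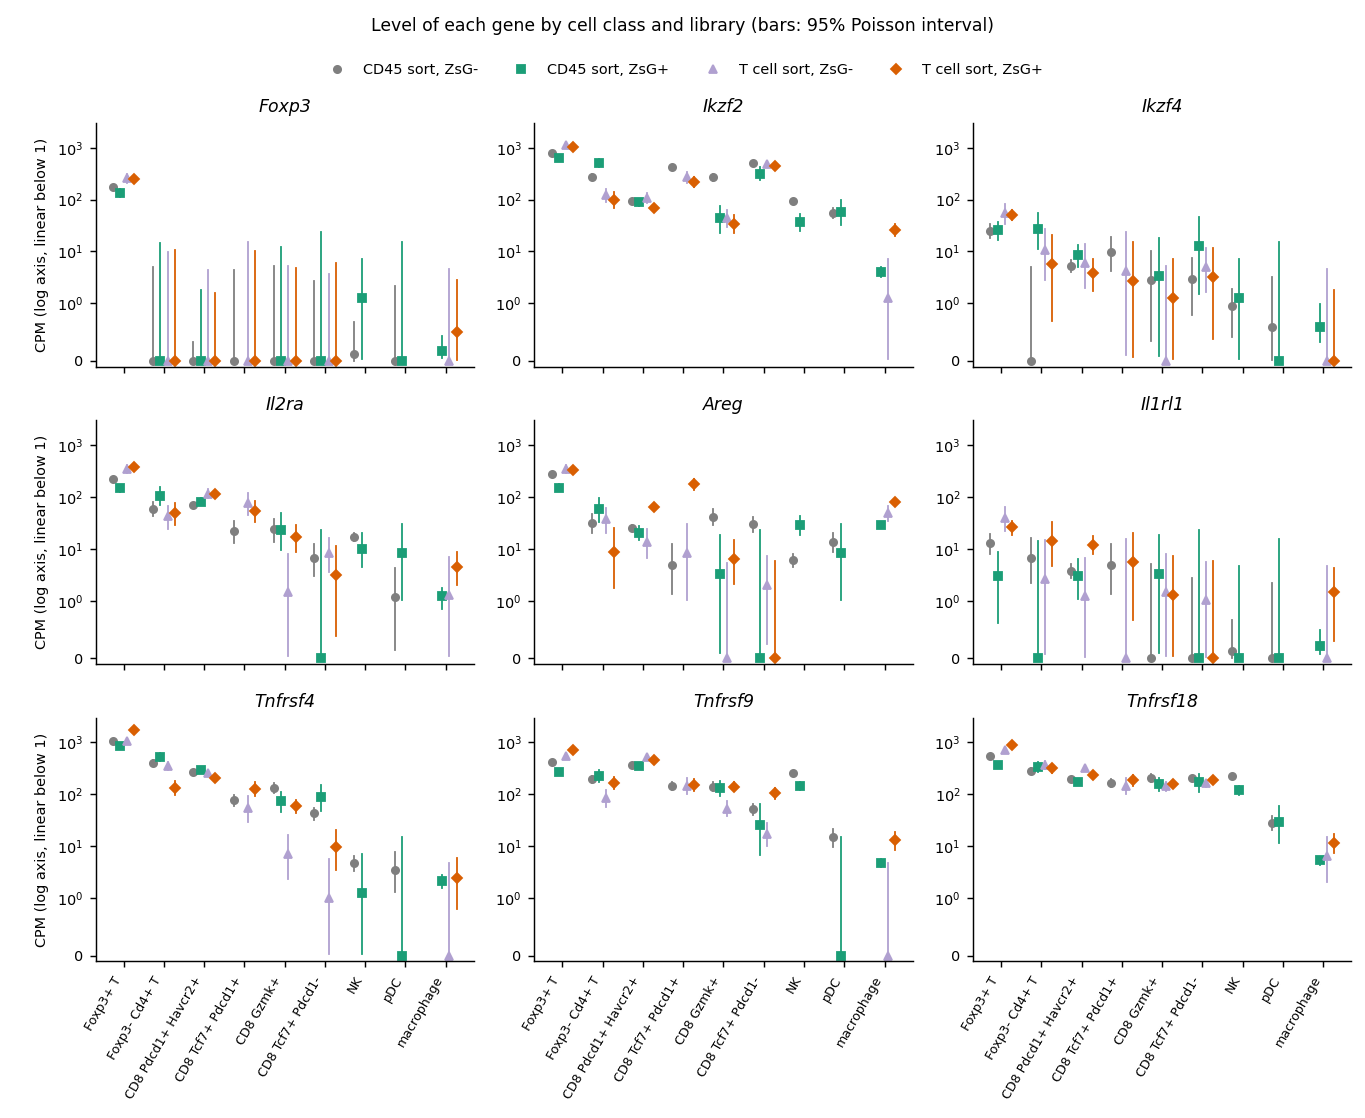
Level of the 9 genes in CPM (vertical axis, log scale, linear below 1) in 9 classes of cells (horizontal axis), with 1 point per library and its 95% Poisson interval, for classes of at least 10 cells. *Areg*, *Tnfrsf4* and *Il2ra* stand highest in Foxp3+ cells of every library, *Ikzf2* has a second peak in Tcf7+ Pdcd1- CD8 T cells (316 to 497 CPM), and *Tnfrsf9* reaches the level of Foxp3+ cells in Pdcd1+ Havcr2+ CD8 T cells (348 to 536 CPM).

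Of the transcription factors, *Ikzf2* was at 807, 627, 1112 and 1043 CPM in Foxp3+ cells and at 277, 513, 121 and 99.8 CPM in Foxp3- Cd4+ cells. The lowest Foxp3+ value lay above the highest Foxp3- value, but in the CD45 ZsG-positive library, with 17 Foxp3- Cd4+ cells, the difference was small. After thinning, 74.1%, 70.0%, 81.1% and 82.5% of Foxp3+ cells had an *Ikzf2* UMI (unthinned, 91.9% to 100%), against at most 3.64% of macrophages. In the order of its levels, Tcf7+ Pdcd1- CD8 T cells came next, at 433 ± 82.7 CPM (SD, n = 4 libraries), then Tcf7+ Pdcd1+ CD8 cells at 304 ± 104 (n = 3) and Foxp3- Cd4+ cells at 253 ± 191 (n = 4). These neighbours lay within each other's spread. *Ikzf2* was at 89.7 ± 15.6 CPM in Pdcd1+ Havcr2+ cells and at 95.6 and 36.7 CPM in NK cells.

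*Ikzf4* was scarce, at 25.2, 25.5, 54.0 and 50.4 CPM in Foxp3+ cells and at 0, 27.2, 10.54 and 5.71 CPM in Foxp3- Cd4+ cells, so that the groups overlapped. Both libraries of the T cell sort stood above those of the CD45 sort. Mature dendritic cells, defined by *Fscn1* and *Ccr7*, had 62.9 and 70.0 CPM over 10 and 53 cells. *Ikzf4* was at or under 12.6 CPM in every CD8 class of at least 10 cells and at 0.959 and 1.27 CPM in NK cells.

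*Il2ra*, the CD25 gene, was at 218, 148, 344 and 382 CPM in Foxp3+ cells. Foxp3- Cd4+ cells had 58.5, 105, 42.1 and 48.5 CPM and Pdcd1+ Havcr2+ CD8 cells 71.2, 81.4, 116 and 116 CPM. The groups did not overlap, and the CD45 ZsG-positive library, where most Foxp3+ cells had macrophage UMIs, was the lowest of the Foxp3+ values. *Il2ra* was almost absent from Tcf7+ Pdcd1- CD8 cells (0 to 8.15 CPM). The gene of its ligand, *Il2*, had 2 UMIs in all Foxp3+ cells together, both in the T cell ZsG-positive library, where it stood at 1.17 CPM. CD8 T cells of the T cell sort had *Il2* at 58.4 CPM (204 UMIs) and 17.3 CPM (87 UMIs), ZsG-negative library first. Those of the CD45 sort had only 0.523 CPM (8 UMIs) and 0 CPM, in the same order. Foxp3- Cd4+ cells had 9.52, 0, 18.4 and 19.97 CPM, from 7, 0, 7 and 7 UMIs. The difference between the sorts was not tested.

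*Areg* was at 280, 152, 346 and 329 CPM in Foxp3+ cells and at 31.3, 58.3, 36.9 and 8.56 CPM in Foxp3- Cd4+ cells. *Areg* UMIs were found in 38 of 81, 17 of 50, 13 of 37 and 41 of 138 Foxp3+ cells, and single cells had up to 57, 62, 55 and 69 UMIs. The tenth of Foxp3+ cells with most *Areg* held 65.1%, 83.9%, 78.0% and 73.1% of its UMIs, so a few cells set the level. Outside Foxp3+ cells, macrophages had 28.7 CPM in the CD45 ZsG-positive library and 48.3 and 80.1 CPM in the T cell sort. The values of the T cell sort came from 4 and 10 cells, with 47.4% and 29.8% of the UMIs in 1 cell. The level of 175 CPM in Tcf7+ Pdcd1+ CD8 cells of the T cell ZsG-positive library came from 3 cells, with 54.7% of its 64 UMIs in 1 cell.

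*Il1rl1* was rare, at 12.9, 2.94, 39.3 and 25.8 CPM in Foxp3+ cells and at 6.80, 0, 2.63 and 14.3 CPM in Foxp3- Cd4+ cells, with overlap. In the CD45 ZsG-positive library it had 3 UMIs, and after thinning 0 of 50 Foxp3+ cells had one, which at 3 counts over 50 cells allows up to 6.0% of cells with a UMI at this depth and says nothing of cells that express the gene without one. Foxp3+ cells with an *Il1rl1* UMI had *Areg* UMIs more often than those without in the values of all 4 libraries: 9 of 14 against 29 of 67, 2 of 2 against 15 of 48, 6 of 10 against 7 of 27 and 17 of 21 against 24 of 117. In the last library this was 81.0% (58.1 to 94.6) against 20.5%, although the cells with *Il1rl1* were shallower there, with a median of 3981 UMIs against 10113. Cells are not replicates, and the difference was not tested. The ligand gene *Il33* had no more than 1 UMI in any class and library shown here.

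Of the TNF receptors, *Tnfrsf4* had 1060, 838, 1085 and 1755 CPM in Foxp3+ cells. Foxp3- Cd4+ cells had 401, 525, 358 and 134 CPM and Pdcd1+ Havcr2+ CD8 cells 269, 294, 260 and 205 CPM. The groups did not overlap, and the T cell ZsG-positive library was both the highest among Foxp3+ and the lowest among Foxp3- Cd4+ cells. The receptor was close to absent from NK cells (4.67 and 1.27 CPM), macrophages (0 to 2.49 CPM) and, in the T cell sort, from Tcf7+ Pdcd1- CD8 cells (1.02 and 9.59 CPM). In the CD45 sort Tcf7+ Pdcd1- CD8 cells had 42.9 and 88.5 CPM. After thinning, 76.5%, 64.0%, 75.7% and 89.1% of Foxp3+ cells had a *Tnfrsf4* UMI (unthinned, 94.6% to 98.6%), against at most 0.561% of macrophages.

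*Tnfrsf9* was at 418, 273, 550 and 731 CPM in Foxp3+ cells and at 196, 229, 84.3 and 165 CPM in Foxp3- Cd4+ cells, without overlap. Pdcd1+ Havcr2+ CD8 cells, at 363, 348, 536 and 450 CPM, lay inside the range of Foxp3+ cells. The means of the classes at the top were 493 ± 195 and 424 ± 87.1 CPM (SD, n = 4 libraries each). These spreads overlapped, but they cover different sorts and gates and not replicates. Within libraries, Foxp3+ cells were higher than Pdcd1+ Havcr2+ cells except in the CD45 ZsG-positive library (273 against 348 CPM). These classes were not tested against each other. NK cells had 263 and 144 CPM, and Tcf7+ Pdcd1- CD8 cells had 49.5 ± 39.1 CPM.

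*Tnfrsf18* was the most widely spread of the 3 receptors. It was at 545, 375, 720 and 899 CPM in Foxp3+ cells and at 287, 342, 366 and 319 CPM in Foxp3- Cd4+ cells, so that the lowest Foxp3+ value, again from the CD45 ZsG-positive library, lay just above the highest Foxp3- value. Every CD8 class had 139 to 328 CPM, and NK cells had 229 and 120 CPM. B cells (57.7 CPM), plasmacytoid dendritic cells (28.3 and 29.2 CPM) and macrophages (5.32 to 11.4 CPM) came last.

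Several of the genes were detected together in part of the Foxp3+ cells. The shares to be expected from how often each gene was detected on its own were not computed, so a link between the genes within cells was not tested. With each cell thinned to 2000 UMIs, at least 4 of the 8 genes other than *Foxp3* were detected in 48.1%, 38.0%, 59.5% and 69.3% of Foxp3+ cells. The same held for 1.61%, 17.6%, 1.59% and 3.85% of Foxp3- Cd4+ cells and for 3.45% to 5.88% of Pdcd1+ Havcr2+ CD8 cells. All 3 TNF receptors together were detected in 28.4%, 20%, 35.1% and 51.8% of Foxp3+ cells. This was 4.84% to 11.8% in Foxp3- Cd4+ cells, 7.14% to 11.8% in Pdcd1+ Havcr2+ CD8 cells and 1 of 1376 NK cells of the CD45 ZsG-negative library. A median Foxp3+ cell showed 3, 3, 4 and 4 of the 8 genes.

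**Figure D2:**
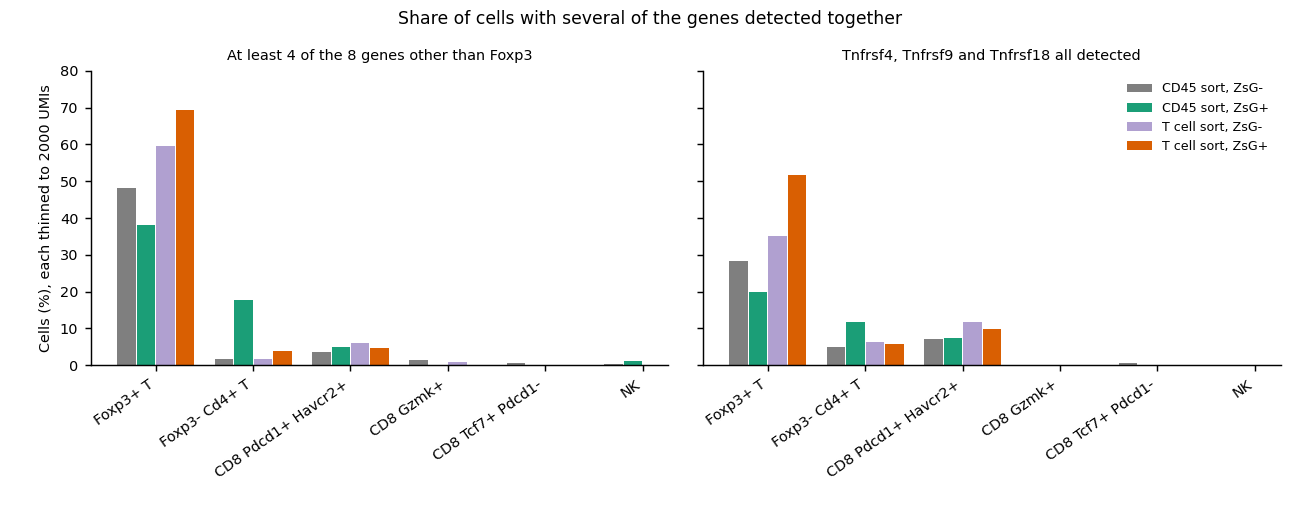
Percentage of cells (vertical axis) in 6 classes (horizontal axis), each cell thinned to 2000 UMIs, in which at least 4 of the 8 genes other than *Foxp3* (left) or all 3 TNF receptor genes (right) had a UMI, with 1 bar per library and no error bars. Foxp3+ cells reach 38.0% to 69.3% on the left and 20% to 51.8% on the right, and all other classes stay at or under 17.6%.

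To ask whether these differences exceeded the spread between libraries, UMI sums of each class and library were fitted with edgeR's quasi-likelihood test, with the library as a block and p-values adjusted by the Benjamini-Hochberg method over all genes. These p-values measure only the spread between these 4 libraries, which are not replicates of one condition. The genes and tests were chosen with earlier results of these data known. Against Foxp3- Cd4+ cells, 6 of the 8 genes tested were higher in Foxp3+ cells (adjusted p under 0.05) and 0 lower, where 0.726% of all 7578 genes were called higher and 1.39% lower (2.11% in either direction). *Areg* showed the largest change among them (log2 fold change 3.06, SE 0.35, adjusted p = 0.00233). *Il2ra* rose by 2.04 (SE 0.32, adjusted p = 0.0127) and *Ikzf2* by 1.99 (SE 0.41, adjusted p = 0.0352) on the log2 scale. Among the receptors, *Tnfrsf4* rose by 1.73 (SE 0.36, adjusted p = 0.0349), *Tnfrsf9* by 1.48 (SE 0.30, adjusted p = 0.0346) and *Tnfrsf18* by 0.86 (SE 0.18, adjusted p = 0.0396). *Ikzf4* (2.16, SE 0.57, adjusted p = 0.0792) and *Il1rl1* (1.51, SE 0.51, adjusted p = 0.161) did not pass. The median log2 fold change of the 8 genes was 1.86, and that of all genes was -0.01.

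Most of these calls hung on single libraries. Without the CD45 ZsG-negative library, or without the T cell ZsG-negative library, only *Areg* was called, and without the T cell ZsG-positive library only *Areg* and *Tnfrsf4*. Over all genes, these fits called 8 of 6704, 4 of 8619 and 5 of 7669 higher, against 55 of 7578 in the main fit. Without the CD45 ZsG-positive library 7 of 8 were called, *Ikzf4* joining the 6, and the same 7 were called in the T cell sort alone. More of all genes were then called higher as well, at 139 of 7539 and 295 of 6725. The same 7 were also called when cells with at least 5 macrophage UMIs were left out (260 of 7352 genes higher). That fit lost the CD45 ZsG-positive library too, where 8 Foxp3- Cd4+ cells remained. DESeq2 called 4 of the 8 (*Areg*, *Il2ra*, *Tnfrsf9* and *Tnfrsf18*), where 38 of 7578 genes were higher. With a mitochondrial limit of 5%, over 4 libraries, 3 of the 7 genes tested were called (*Areg*, *Il2ra* and *Tnfrsf4*), where 13 of 7107 genes were higher. The direction was higher in Foxp3+ cells for each of the genes in every alternative that tested it. Foxp3+ cells were deeper than Foxp3- Cd4+ cells, with median UMIs of 18716 against 7322, 19350.5 against 13194, 6139 against 4510 and 8668.5 against 4461, and the macrophage markers of Foxp3- Cd4+ cells summed to 74.8, 5669, 1096 and 3631 CPM. With cells thinned to 2000 UMIs before classes were set, 5 of the 6 genes still tested were called, where 28 of 2125 genes were higher. This fit held 3 libraries, since 4 Foxp3- Cd4+ cells remained in the CD45 ZsG-positive library. Neither the thinned fit nor that without macrophage UMIs separates depth or macrophage transcripts from the loss of that library, and their part in the result was not tested on its own. The part of Tregs without a *Foxp3* UMI among the Foxp3- Cd4+ cells was not tested either.

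Against CD8 T cells, 7 of 8 genes were higher in Foxp3+ cells and 0 lower, where 5.39% of 10008 genes were called higher and 4.03% lower (9.41% in either direction). The largest changes were in *Areg* (log2 fold change 3.42, SE 0.31, adjusted p = 0.000858), *Ikzf4* (2.79, SE 0.40, adjusted p = 0.00517) and *Tnfrsf4* (2.76, SE 0.30, adjusted p = 0.0014). *Ikzf2* rose by 2.33 (SE 0.16, adjusted p = 0.000356), *Il2ra* by 2.01 (SE 0.21, adjusted p = 0.00117), *Il1rl1* by 1.93 (SE 0.42, adjusted p = 0.0273) and *Tnfrsf18* by 1.57 (SE 0.14, adjusted p = 0.000842). *Tnfrsf9*, which CD8 T cells also carried, did not pass (0.74, SE 0.22, adjusted p = 0.0813). *Tnfrsf9* was called in 8 of 17 alternatives, DESeq2 among them, and *Areg*, *Ikzf2*, *Ikzf4*, *Il2ra*, *Tnfrsf4* and *Tnfrsf18* were called in 17 of 17 alternatives. *Il1rl1* was called in 14 of the 16 that tested it, but not without the CD45 ZsG-negative or without the T cell ZsG-positive library.

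**Figure D3:**
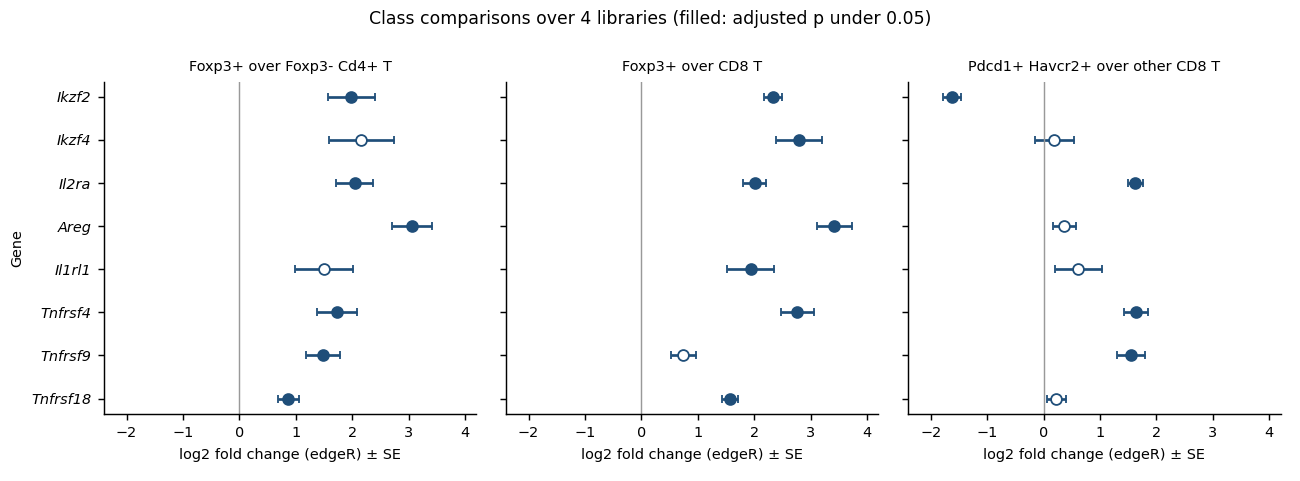
log2 fold change with its standard error (horizontal axis, edgeR) of the 8 genes other than *Foxp3* (vertical axis) in 3 comparisons of cell classes over 4 libraries. Filled points passed an adjusted p of 0.05: 6 of 8 in the left panel, 7 of 8 in the middle and 4 of 8 on the right, where *Ikzf2* (-1.63) stands apart from *Tnfrsf4* (1.64), *Il2ra* (1.62) and *Tnfrsf9* (1.55).

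Within CD8 T cells the 8 genes did not all move the same way. In Pdcd1+ Havcr2+ cells, against all other CD8 T cells, 3 of 8 genes were higher and 1 lower, where 14.9% of 9975 genes were called higher and 16.9% lower (31.8% in either direction). *Tnfrsf4* rose by 1.64 (SE 0.21, adjusted p = 0.000772), *Il2ra* by 1.62 (SE 0.13, adjusted p = 0.000104) and *Tnfrsf9* by 1.55 (SE 0.25, adjusted p = 0.00206) on the log2 scale. *Ikzf2* fell by 1.63 (SE 0.16, adjusted p = 0.000207). *Tnfrsf18* (0.23, adjusted p = 0.33), *Areg* (0.37, adjusted p = 0.199), *Ikzf4* (0.19, adjusted p = 0.716) and *Il1rl1* (0.62, adjusted p = 0.286) did not pass. The same 4 calls were made without each library in turn. Without cycling cells, over 4 libraries, 5 of the 7 genes tested were higher, *Areg* and *Tnfrsf18* joining them, and *Ikzf2* was lower. That step left 67 of 406, 10 of 83, 34 of 51 and 84 of 132 Pdcd1+ Havcr2+ cells. Pdcd1+ Havcr2+ cells were much deeper than other CD8 T cells, with median UMIs of 26520.5 against 6629.5 in the CD45 ZsG-negative library and 14389.5 against 6154 in the T cell ZsG-positive library. When cells were thinned before classes were set, *Ikzf2* was still called lower, and *Tnfrsf4*, *Il2ra* and *Tnfrsf9* were not called. That fit held 2 of the 4 libraries, since 7 and 9 Pdcd1+ Havcr2+ cells remained in the CD45 ZsG-positive and T cell ZsG-negative libraries, so thinning and the loss of libraries cannot be told apart.

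Where *Ikzf2* stood in CD8 T cells was followed further with a split chosen after its values were seen. CD8 T cells with a UMI of *Klra1*, *Klra6* or *Klra7*, inhibitory Ly49 receptor genes of NK cells and of some CD8 T cells, numbered 192, 16, 64 and 52. They had 445, 724, 1198 and 756 CPM of *Ikzf2*, against 117, 88.5, 123 and 72.9 CPM in CD8 T cells without one. The levels in the 2 groups did not overlap in any pair of libraries. The level with a *Klra* UMI reached the 627 CPM of Foxp3+ cells in the CD45 ZsG-positive library, over 16 cells. It also reached their 1112 CPM in the T cell ZsG-negative library. Cells with a *Klra* UMI had median depths of 7446.5, 4322.5, 6858.5 and 6658.5 UMIs and those without of 16076, 17264, 6368.5 and 7531, so the depth of the groups differed mainly in the CD45 sort. Among Tcf7+ Pdcd1- cells alone, the levels with and without a *Klra* UMI were 762 and 258 CPM in the CD45 ZsG-negative library, 1270 and 198 in the T cell ZsG-negative and 948 and 168 in the T cell ZsG-positive library. *Ncr1*, a marker of NK cells, had a UMI in 9.90%, 6.25%, 1.56% and 1.92% of the CD8 T cells with a *Klra* UMI and in 4.49%, 1.32%, 0.273% and 0.0% of the others. The *Klra* genes are close copies of each other whose reads can be assigned to the wrong copy, so they are given only as a group.

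**Figure D4:**
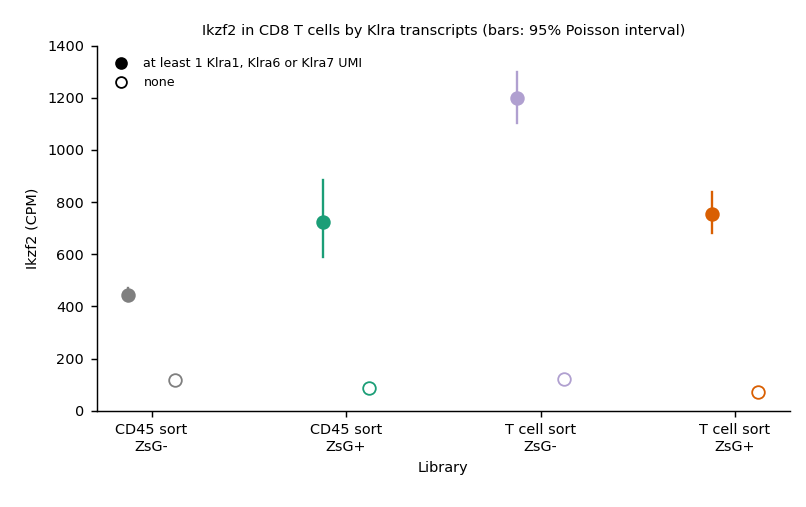
*Ikzf2* level in CPM (vertical axis) in CD8 T cells of each library (horizontal axis), with 95% Poisson intervals, for cells with at least 1 UMI of *Klra1*, *Klra6* or *Klra7* (filled) and without (open). The filled points lie at 445 to 1198 CPM and the open points at 72.9 to 123 CPM.

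The other genes of the Treg program were counted on a list of 25. Against Foxp3- Cd4+ cells, 3 of the 20 tested were higher in Foxp3+ cells and 0 lower (0.726% and 1.39% of all genes), with a median log2 fold change of 0.61. These were *Lrrc32*, which encodes the TGF-beta docking receptor GARP (2.57, adjusted p = 0.0154), *Il10*, an anti-inflammatory cytokine (2.41, adjusted p = 0.0216), and *Ctla4*, an inhibitory receptor (1.35, adjusted p = 0.0201). DESeq2 called 3 of the list higher and 0 lower. *Lrrc32* was at 51.0, 45.1, 44.2 and 47.5 CPM in Foxp3+ cells and at 6.80, 23.3, 2.63 and 2.85 CPM in Foxp3- Cd4+ cells. Against CD8 T cells, 14 of 23 were higher (5.39% of all genes) and 1 lower (4.03%), *Ikzf1* (-0.55, adjusted p = 0.024), which encodes Ikaros. In Pdcd1+ Havcr2+ over other CD8 T cells, 6 of 20 were higher and 2 lower (14.9% and 16.9% of all genes).

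The rest of the TNF receptor family was counted on a list of 24. Against Foxp3- Cd4+ cells, 0 of 8 tested were called in either direction by edgeR and by DESeq2 (2.11% of all genes by edgeR). The smallest edgeR p-values among them were those of *Tnfrsf1b*, which encodes TNF receptor 2 (0.79, adjusted p = 0.0516), and *Cd27* (0.76, adjusted p = 0.061). Against CD8 T cells, 4 of 15 were higher and 0 lower (5.39% and 4.03% of all genes). *Tnfrsf8* (CD30) rose by 3.93 (adjusted p = 0.00508), *Tnfrsf13b* (TACI) by 2.35 (adjusted p = 0.00537), *Tnfrsf25* (DR3) by 2.18 (adjusted p = 0.0192) and *Tnfrsf1b* by 0.90 (adjusted p = 0.0016). Against Foxp3- Cd4+ cells the log2 fold change was 1.96 for *Tnfrsf8*, 0.31 for *Tnfrsf13b* and -0.82 for *Tnfrsf25*. In Foxp3+ cells of the CD45 ZsG-positive library, *Tnfrsf8* had 3 UMIs and *Tnfrsf25* had 1 UMI. *Tnfrsf1b* was at 91.4, 101, 103 and 129 CPM in Foxp3+ cells, 44.9, 77.8, 65.8 and 59.9 CPM in Foxp3- Cd4+ cells and 43.7 to 67.2 CPM in Pdcd1+ Havcr2+ CD8 cells. In Pdcd1+ Havcr2+ over other CD8 T cells, 0 of 14 were higher and 5 lower (14.9% and 16.9% of all genes), with a median of -0.71 beside -0.06 for all genes. Among these were the death receptor *Fas* (-1.38, adjusted p = 0.000858) and *Tnfrsf1a* (-0.74, adjusted p = 0.041).

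Ligands and signaling partners, a list of 29, were lower where they were called against Foxp3- Cd4+ cells (3 of 17 tested, 0 higher, beside 1.39% and 0.726% of all genes). *Cd40lg*, the CD40 ligand of helper T cells, was at 1.17, 0.98, 2.46 and 4.69 CPM in Foxp3+ cells and at 31.3, 15.6, 129 and 97.0 CPM in Foxp3- Cd4+ cells (log2 fold change -4.57, adjusted p = 0.000131). *Fasl*, the ligand of Fas (-2.41, adjusted p = 0.00522), and *Tnfsf11*, which encodes RANKL (-2.71, adjusted p = 0.0248), were the others. Against CD8 T cells, 4 of 22 were higher and 3 lower (5.39% and 4.03% of all genes), among them the adaptor gene *Traf1* (0.70, adjusted p = 0.0124), the NF-kB subunit gene *Relb* (0.48, adjusted p = 0.0447) and *Fasl* (-2.60, adjusted p = 0.00115). In Pdcd1+ Havcr2+ over other CD8 T cells, 2 of 23 were higher and 5 lower (14.9% and 16.9% of all genes), among them *Il2rg*, the shared chain of the interleukin 2 receptor family (-0.70, adjusted p = 0.000956).

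The genes whose levels were most like those of each gene were found over 35 groups of cells (class and library), which share libraries and depth, among 11680 genes. Correlations are of log2(CPM + 10) and are given as a description. For *Foxp3* these were *Lrrc32* (Pearson r = 0.97), *Rragd* (0.94) and *Rapsn* (0.90). *Foxp3* UMIs defined the classes of T cells, so its correlations mostly rank genes by how they separate Foxp3+ cells from the others. For *Il2ra* they were *Tnfrsf4*, *Dusp4* and *Sdf4* (0.89 each), and for *Tnfrsf4* they were *Dusp4* (0.92), *Sdf4* (0.90) and *Il2ra* (0.89). For *Tnfrsf9* they were *Gm45716* (0.92), *Pglyrp1* (0.91) and *Osbpl3* (0.88), and for *Tnfrsf18* *Zbtb1* (0.89), *Gata3* (0.89) and *Icos* (0.88). For *Areg* they were *Itgb8* (0.82), *Il10* (0.76) and *Itgav* (0.75). *Ikzf2* had *Srpk1* (0.81), *Lysmd2* (0.79) and *Ppcs* (0.78), *Ikzf4* had *Ankrd55* (0.81), *Wnk1* (0.79) and *Arl5a* (0.78), and *Il1rl1* had *Nebl* (0.84), *Ncmap* (0.79) and *Smco4* (0.77). Among the 9 genes, the closest pairs were *Il2ra* with *Tnfrsf4* (0.89), *Tnfrsf9* with *Tnfrsf18* (0.85) and *Il2ra* with *Tnfrsf9* (0.83).

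The study asked which immune cells held tumor material and how they differed from those that did not, so the ZsG-positive library was set beside the ZsG-negative library of each sort. Each sort had 1 library per gate, the sorts set their gates differently, and no test was made across them. A gene was counted as past the fold at a 2-fold difference in CPM with at least 20 UMIs over both libraries. For the shares over all genes a small constant was first added to each UMI sum, so calls near the fold can differ. *Foxp3* itself is left out within Foxp3+ cells, since it chose them. In Foxp3+ cells of the T cell sort, 0 of the 8 other genes were past the fold, where 7.31% of 7199 genes were higher and 3.24% lower. *Ikzf2* (log2 ratio -0.09, interval -0.24 to 0.06), *Areg* (-0.07, -0.34 to 0.20), *Ikzf4* (-0.10, -0.79 to 0.65) and *Il1rl1* (-0.61, -1.46 to 0.32) had intervals that spanned 0. The 3 TNF receptors stood higher in the ZsG-positive library. *Tnfrsf4* had a log2 ratio of 0.69 (0.55 to 0.84), *Tnfrsf9* of 0.41 (0.20 to 0.62) and *Tnfrsf18* of 0.32 (0.14 to 0.51), and *Il2ra* of 0.15 (-0.11 to 0.42).

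In Foxp3+ cells of the CD45 sort the receptors stood the other way. *Tnfrsf4* had a log2 ratio of -0.34 (-0.46 to -0.22), *Tnfrsf9* of -0.61 (-0.82 to -0.41) and *Tnfrsf18* of -0.54 (-0.71 to -0.36). *Areg* (-0.88, -1.15 to -0.62), *Il2ra* (-0.56, -0.84 to -0.28) and *Ikzf2* (-0.36, -0.50 to -0.23) were lower as well. Of the 8 genes only *Il1rl1* was past the fold (-2.13, -4.52 to -0.40, from 22 and 3 UMIs), where 8.66% of 8145 genes were higher and 3.66% lower. The 7 T cell markers (*Cd3d*, *Cd3e*, *Cd3g*, *Trac*, *Cd4*, *Cd8a* and *Cd8b1*) were lower in these cells as well. They summed to 2822 CPM in the ZsG-negative and 1658 CPM in the ZsG-positive library, beside 2827 and 3101 CPM in the T cell sort. The part of this difference in the ratios of the 8 genes was not tested. In both ZsG-positive libraries *Tnfrsf4* was lower in the Foxp3+ cells that held macrophage UMIs. In the CD45 ZsG-positive library *Tnfrsf4* was at 698 CPM in the 36 Foxp3+ cells with at least 5 macrophage UMIs and at 1300 CPM in the 14 without. In the T cell ZsG-positive library it was at 909 CPM in 8 and 1846 CPM in 130 cells. The CD45 ZsG-negative library, with 10 and 71 cells, was mixed. *Tnfrsf4* (947 and 1082 CPM), *Tnfrsf18* (376 and 578) and *Ikzf2* (617 and 844) were lower in cells with macrophage UMIs. *Tnfrsf9* was alike (423 and 417), and *Il2ra* (341 and 194) and *Areg* (351 and 266) were higher. Without such cells, 14 against 71 cells remained in the CD45 sort, and *Tnfrsf4* had a log2 ratio of 0.26 (0.08 to 0.44), *Tnfrsf9* of -0.04 (-0.37 to 0.27) and *Tnfrsf18* of -0.33 (-0.63 to -0.04). *Ikzf2* (0.07), *Il2ra* (0.18) and *Areg* (0.15) then had intervals that spanned 0. In the T cell sort the same step left *Tnfrsf4* at 0.77 (0.62 to 0.91), *Tnfrsf9* at 0.47 (0.26 to 0.68) and *Tnfrsf18* at 0.39 (0.21 to 0.58).

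**Figure D5:**
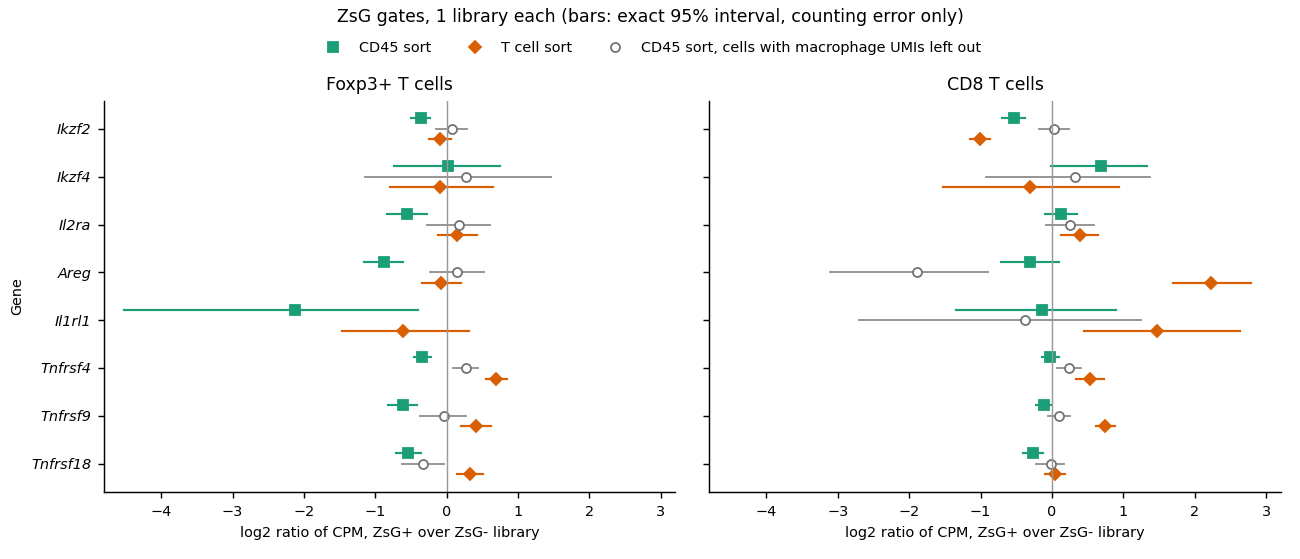
log2 ratio of CPM in the ZsG-positive over the ZsG-negative library (horizontal axis) of the 8 genes other than *Foxp3* (vertical axis) in Foxp3+ T cells (left) and CD8 T cells (right), with exact 95% intervals for counting error, for the CD45 sort, the T cell sort and the CD45 sort without cells that held macrophage UMIs. In Foxp3+ cells *Tnfrsf4* lies at -0.34 in the CD45 sort, at 0.26 once those cells are left out and at 0.69 in the T cell sort.

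In all CD8 T cells of the T cell sort, 2 of 8 genes were past the fold higher and 1 lower, where 4.86% of 9744 genes were higher and 1.81% lower. *Ikzf2* was at 276 CPM in the ZsG-negative and 137 CPM in the ZsG-positive library (log2 ratio -1.01, -1.15 to -0.86). *Areg* was at 9.74 and 45.4 CPM (2.22, 1.70 to 2.79), from 34 UMIs in 9 of 430 cells and 229 UMIs in 21 of 478 cells. *Il1rl1* (1.47, 0.44 to 2.63) rested on 10 and 40 UMIs. *Tnfrsf9* was at 183 and 306 CPM (0.74, 0.61 to 0.88) and *Tnfrsf4* at 92.8 and 134 CPM (0.53, 0.34 to 0.73), while the interval of *Tnfrsf18* spanned 0 (0.04, -0.10 to 0.18). The macrophage markers of these cells summed to 350 CPM in the ZsG-negative and 1744 CPM in the ZsG-positive library. Macrophages of these libraries had *Areg* at 48.3 and 80.1 CPM, from 4 and 10 cells. Without cells that held macrophage UMIs, the log2 ratio was 2.35 (1.81 to 2.93) for *Areg*, -0.96 (-1.11 to -0.81) for *Ikzf2* and 0.77 (0.64 to 0.91) for *Tnfrsf9*.

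The receptors did not keep this order within CD8 subsets. Pdcd1+ Havcr2+ cells, the subset with most *Tnfrsf9*, made up 51 of 430 CD8 T cells in the ZsG-negative and 132 of 478 in the ZsG-positive library. Inside this subset *Tnfrsf9* was lower in the ZsG-positive library (536 and 450 CPM, log2 ratio -0.25, -0.41 to -0.09), as were *Tnfrsf4* (-0.34, -0.58 to -0.10) and *Tnfrsf18* (-0.49, -0.71 to -0.28). Macrophage markers in this subset summed to 19.4 CPM in the ZsG-negative and 2316 CPM in the ZsG-positive library, and their part in these values was not tested. *Tnfrsf9* was higher in Gzmk+ cells, at 53.3 and 141 CPM (1.40, 0.85 to 1.98). It was also higher in Tcf7+ Pdcd1- cells, at 17.3 and 104 CPM (2.59, 1.80 to 3.45, from 17 and 65 UMIs). In the rest of the CD8 T cells it was at 141 and 279 CPM (0.98, 0.65 to 1.32). In Tcf7+ Pdcd1+ cells, at 146 and 151 CPM, its interval spanned 0 (0.04, -0.59 to 0.70). *Tnfrsf4* in Gzmk+ cells was at 7.20 and 58.8 CPM, from 5 and 46 UMIs (3.03, 1.70 to 4.72). The interval of *Ikzf2* spanned 0 in Tcf7+ Pdcd1- cells (486 and 435 CPM, -0.16, -0.38 to 0.06), which numbered 140 in the ZsG-negative and 88 in the ZsG-positive library.

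Counted over the genes with at least 20 UMIs in a subset, the T cell sort had 2 of 7 past the fold higher in Pdcd1+ Havcr2+ cells (*Areg* and *Il1rl1*, with backgrounds of 7.34% higher and 1.48% lower). It had 2 of 6 higher in Tcf7+ Pdcd1+ cells (*Areg* and *Tnfrsf4*, 5.02% and 6.84%), 2 of 4 higher in Gzmk+ cells (*Tnfrsf4* and *Tnfrsf9*, 3.33% and 2.35%) and 1 of 3 higher in Tcf7+ Pdcd1- cells (*Tnfrsf9*, 3.25% and 2.88%). In the rest of the CD8 T cells, 1 of 6 was lower (*Ikzf2*, 406 and 162 CPM, 3.73% and 2.99%). The CD45 sort showed no shared pattern. There, 0 of 8 were past the fold in Pdcd1+ Havcr2+ cells (7.36% and 2.22%), and 2 of 6 were lower in Gzmk+ cells (*Ikzf2* and *Areg*, 9.13% and 8.54%). In Tcf7+ Pdcd1- cells, 1 of 5 was higher (*Tnfrsf4*) and 2 lower (*Areg* and *Tnfrsf9*, 14.3% and 8.48%), and in the rest 1 of 6 was higher (*Areg*) and 2 lower (*Ikzf2* and *Tnfrsf4*, 8.65% and 4.91%). The CD45 ZsG-positive library held only 22 to 35 cells of each of these last 3 subsets. *Tnfrsf9* in its Tcf7+ Pdcd1- cells had 4 UMIs against 71 in the ZsG-negative library, and its interval spanned 0 (-1.03, -2.94 to 0.39). The *Areg* counts rested on few cells. In the T cell sort, Pdcd1+ Havcr2+ cells had 11 UMIs in 2 ZsG-negative and 147 in 13 ZsG-positive cells. Tcf7+ Pdcd1+ cells there had 2 UMIs in 2 and 64 in 3 cells. In the CD45 ZsG-negative library, *Areg* had 30 UMIs in 4 Gzmk+, 41 in 2 Tcf7+ Pdcd1- and 27 in 8 of the remaining CD8 T cells.

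In CD8 T cells of the CD45 sort, 0 of 8 genes were past the fold, where 8.0% of 10885 genes were higher and 2.59% lower. *Ikzf2* was at 170 and 117 CPM (log2 ratio -0.54, -0.70 to -0.38), *Tnfrsf18* at 200 and 166 CPM (-0.27, -0.41 to -0.13) and *Tnfrsf9* at 307 and 283 CPM (-0.11, -0.22 to -0.01). For *Tnfrsf4* the interval spanned 0 (-0.03, -0.15 to 0.09). The T cell markers of these CD8 T cells summed to 3520 CPM in the ZsG-negative and 2668 CPM in the ZsG-positive library. The part of this difference in the ratios was not tested. Without cells that held macrophage UMIs, *Ikzf2* had a log2 ratio of 0.03 with an interval of -0.19 to 0.24.

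Foxp3- Cd4+ cells of the T cell sort, 63 and 53 cells, had less *Tnfrsf4* in the ZsG-positive library (358 and 134 CPM, log2 ratio -1.42, -1.93 to -0.93). It was the only one of the 5 genes with 20 UMIs past the fold, where 6.39% of 4395 genes were higher and 3.5% lower. In the CD45 sort 0 of 6 genes of Foxp3- Cd4+ cells were past the fold (9.8% of 5469 genes higher, 7.9% lower). *Tnfrsf9* in the T cell sort was at 84.3 and 165 CPM (0.97, 0.33 to 1.64). NK cells of the CD45 sort, 1377 and 92 cells, had *Tnfrsf9* at 263 and 144 CPM (-0.87, -1.15 to -0.59) and *Tnfrsf18* at 229 and 120 CPM (-0.93, -1.24 to -0.63). In NK cells *Ikzf2* (-1.38, -1.97 to -0.85) and *Tnfrsf4* (-1.88, -7.22 to 0.68, from 39 UMIs and 1 UMI) were past the fold lower and *Areg* higher (2.28, 1.501 to 3.02, from 50 and 23 UMIs), where 11.3% of 10191 genes were higher and 7.69% lower. The 5 NK cell markers (*Ncr1*, *Klrb1c*, *Klre1*, *Klra8* and *Eomes*) were lower in these cells as well, at 2271 CPM in the ZsG-negative and 1179 CPM in the ZsG-positive library. The part of this difference in the ratios was not tested. Macrophage markers in NK cells summed to 273 and 7392 CPM, and macrophages of the CD45 ZsG-positive library had *Areg* at 28.7 CPM beside 29.1 CPM in its NK cells. NK cells with macrophage UMIs were not left out in any alternative, so the part of these transcripts was not tested.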

How the data were processed

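Single-cell libraries were made by the authors with 10x Genomics 3′ chemistry, aligned to mm10 and combined per sort with Cell Ranger (6.1.2 per the labels and the header of the T cell matrix, 7.0.0 per the header of the CD45 matrix). The sources used here do not say whether depth was evened across libraries. The deposited matrices hold raw UMI counts per gene and barcode, and the barcode suffix gave the library.

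Following the study's limits, cells of the CD45 sort were kept with 1000 to 6000 genes and under 10% mitochondrial UMIs, and those of the T cell sort with 50 to under 6000 genes and under 15%, which left 4699, 4123, 948 and 1879 cells. T cells had at least 0.055% of UMIs from *Cd3d*, *Cd3e* and *Cd3g* and, in the CD45 sort, a *Trac* UMI. Foxp3+ cells had at least 1 *Foxp3* UMI. Foxp3- Cd4+ and CD8 T cells had none, and CD8 T cells also had no *Cd4* UMI and at least 1 of *Cd8a* or *Cd8b1*. CD8 subsets were taken in the order given, each from the cells left. Macrophages, plasmacytoid dendritic cells and B cells were set by at least 3 UMIs of *C1qa*, *Siglech* or *Cd79a*, and mature dendritic cells by at least 2 of *Fscn1* and 1 of *Ccr7*. In the CD45 sort these cells had no CD3 UMI. NK cells were cells of the CD45 sort with at least 1 *Ncr1* UMI and no UMI of *Cd3d*, *Cd3e*, *Cd3g* or *Trac*. Any other cell that met this rule was counted among them. Macrophages of the T cell sort were cells under the 0.055% limit, and their T cell markers summed to 134 and 70.7 CPM. Doublets were not called by a tool, and cells with macrophage transcripts or the most UMIs were left out as alternatives.

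UMIs were summed per class and library and scaled to CPM with pandas 2.3.3, numpy 2.4.6 and scipy 1.17.1 under Python 3.11.15. Intervals (95%) are exact: Poisson for a sum, Clopper-Pearson for a share and conditional binomial for a ratio. For shares of cells with a gene, cells were thinned to 2000 UMIs. Classes were compared with edgeR 4.0.16 (R 4.3.3, TMM, filterByExpr with a minimum count of 5, two-sided) in libraries with at least 10 cells of both classes. The fits were tested on simulated data. Named genes were the 9 genes, the 3 most correlated genes of each (groups of at least 20 cells, genes of at least 50 UMIs) and up to 8 genes per list with the smallest p against Foxp3- Cd4+ cells. The genes of the receptors' own ligands and *Klra1*, *Klra6* and *Klra7* were added after values were seen. The 9 genes, the lists and the tests were chosen with earlier results of these data known. Alternatives are given at the end, with DESeq2 1.42.0 among them. Promoters come from RefSeq (GRCm38.p6). Figures were drawn with matplotlib 3.10.9.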

Additional observations from a re-analysis of the deposited data

Results flagged for a closer look

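In Foxp3+ T cells the 3 TNF receptors stood lower in the ZsG-positive library of the CD45 sort and higher in that of the T cell sort. The log2 ratios of ZsG-positive over ZsG-negative were -0.34 and 0.69 for *Tnfrsf4*, -0.61 and 0.41 for *Tnfrsf9* and -0.54 and 0.32 for *Tnfrsf18*. In CD8 T cells *Tnfrsf9* had -0.11 in the CD45 sort and 0.74 in the T cell sort. Each of these intervals excluded 0 for counting error, but with 1 library per gate the difference between the sorts was not tested. The sorts also differ in how bright a ZsG-positive cell had to be, and 36 of 50 Foxp3+ cells of the CD45 ZsG-positive library held at least 5 macrophage UMIs, against 8 of 138 in the T cell ZsG-positive library. T cell markers of Foxp3+ cells summed to 2822 CPM in the ZsG-negative and 1658 CPM in the ZsG-positive library of the CD45 sort. In the T cell sort they summed to 2827 and 3101 CPM. If the libraries of the T cell sort were assigned the other way, the signs of these ratios would be the same in both sorts, and those of the Foxp3+ share (5.61% and 17.7% in the T cell sort, 6.04% and 18.5% in the CD45 sort) would be opposite.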

How the results depend on the processing

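No paired analysis of the gates over the sorts was made, since the sorts set their gates differently and each gate gave 1 library. The class comparisons already have the library as a block. Alternatives numbered 803, of which 72 of the main counts and shares and 597 of the single gene values stayed the same. The count of genes called in Foxp3+ over Foxp3- Cd4+ cells (160, of which 55 higher) was unstable, at 22 to 652 over the alternatives. Without cells holding macrophage transcripts, when thinned before classes, without cycling cells and with at least 20 cells, the CD45 ZsG-positive library also dropped out of this fit, which alone gave 316. It was 612 (260 higher) without cells holding macrophage transcripts, 49 with a mitochondrial limit of 5%, 106 without the 5% of cells with most UMIs, 66 (28 higher) with cells thinned before classes, 64 (36 higher) without cycling cells, 617 (315 higher) with no filter on low counts, 316 (139 higher) with at least 20 cells, 652 (295 higher) in the T cell sort alone and 22 to 316 without 1 library. The count for Foxp3+ over CD8 T cells (942) was 542 (223 higher) when thinned, over 3 libraries, 599 without cycling cells and 277 to 784 without 1 library. For Pdcd1+ Havcr2+ over other CD8 T cells (3175) it was 25 (4 higher) when thinned, over 2 of the 4 libraries, 1691 without cycling cells, 1203 in the T cell sort alone and 1166 to 3078 without 1 library. Genes past the fold between gates numbered 1003 in Foxp3+ cells of the CD45 sort (288 with at least 100 UMIs), 759 in those of the T cell sort (110, and 164 when thinned), 1153 in CD8 T cells of the CD45 sort (489, 674 when thinned, and 755 without macrophage transcripts, of which 340 were higher in place of 871) and 650 in those of the T cell sort (202, and 354 when thinned). The log2 ratio of the Foxp3+ share in the CD45 sort (1.61) was 1.06 without macrophage transcripts and 2.17 without cycling cells. When thinned before classes it was 0.073, with 4 Foxp3+ cells left in the ZsG-positive library. The median share of Foxp3+ cells with a UMI of one of the genes, 54.9%, was 83.1% unthinned and 41.1% at 1000 UMIs. Directions turned for *Areg* in Pdcd1+ Havcr2+ cells when thinned (-1.98), for *Tnfrsf9* in CD8 T cells of the CD45 sort as a mean of log-normalized values (0.055) and without macrophage transcripts (0.097), and for *Ikzf2* there without macrophage transcripts (0.029) and when thinned (0.45). In Foxp3+ cells of the CD45 sort they turned without macrophage transcripts for *Ikzf2* (0.070), *Il2ra* (0.18), *Areg* (0.15) and *Tnfrsf4* (0.26). Thinning and smaller groups leave fewer genes to test, and other causes were not tested.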

Other observations

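The ligand gene of 4-1BB had its highest levels in other cells than its receptor. *Tnfsf9* was at 99.2 CPM in macrophages of the CD45 ZsG-positive library (2369 UMIs in 1603 cells), at 106 and 120 CPM in those of the T cell sort and at 138 and 67.3 CPM in mature dendritic cells. Foxp3+ cells had 16.4, 37.2, 19.6 and 37.5 CPM. *Tnfsf9* UMIs were also found among other cells with the receptor. Foxp3- Cd4+ cells had 12.2, 42.8, 42.1 and 45.6 CPM, CD8 T cells 7.58, 27.5, 8.88 and 19.8 CPM, and NK cells 5.03 and 39.3 CPM. Macrophage markers in Foxp3+, Foxp3- Cd4+, CD8 T and NK cells summed to 1018, 74.8, 102 and 273 CPM in the CD45 ZsG-negative library. In the CD45 ZsG-positive library they summed to 6613, 5669, 3614 and 7392 CPM. The part of macrophage transcripts in the *Tnfsf9* levels of these lymphocytes was not tested. The OX40 ligand gene *Tnfsf4* had its highest level in mature dendritic cells, at 37.8 CPM (3 UMIs) and 20.6 CPM (15 UMIs), with 98 UMIs (6.40 CPM) in CD8 T cells of the CD45 ZsG-negative library. The GITR ligand gene *Tnfsf18* had no more than 4 UMIs in any class and library, so its source was not detectable at this depth.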
